A study of Mus musculus with 3 samples.

Results

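HIF1α peaks that rested on 1 call with a score of 3 and lay at an end of a protein-coding gene are described here, together with the genes at which they lie. The members were chosen by measured values, namely the number of merged calls in the peak name, the deposited score of exactly 3 and the distance from the peak centre to a gene end, which had to be within 1.0 kb. This rule found 1110 peaks among the 4472 nuclear peaks of 1 call and score 3, and among 17288 nuclear peaks in all. Each of the 1110 peaks was 101 bp wide. They lay at 1219 of 21779 protein-coding genes, which is 5.6% of them, and that share is the background against which each gene list below is read. At the 1.0 kb limit, the farthest members lay 997 bp from Slit2, 999 bp from Epm2a and 999 bp from Ftdc2, and the nearest peaks outside lay 1005 bp from Zfp322a, 1006 bp from Nhsl1 and 1008 bp from Vgll4.

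The peaks came from chromatin immunoprecipitation and sequencing (ChIP-seq), in which an antibody pulls down a chromatin protein together with the DNA it is cross-linked to. Hearts were taken from wild-type embryos of the Black-Swiss strain at E12.5, an embryonic day of development at which the heart already beats, and gave 2 pulldown libraries with an antibody against HIF1α. The reference was 1 input library of the same genotype, stage and strain, made with no antibody. The labels give neither the number of hearts per library nor whether the pulldowns came from separate hearts. The authors deposited 1 merged peak list, so a peak has no value per library, the read depth is unknown, and which pulldown gave a call is not marked. No value below therefore has a replicate error or a test. Shares are given with exact 95% Clopper-Pearson intervals, which cover counting error only. The share that a count of 0 allows is instead given as 3 divided by the number of genes, which lies below the exact upper limit. Peaks and genes are not replicates, and neighbouring genes can share a peak.

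HIF1α is the oxygen-regulated subunit of hypoxia-inducible factor. In well-oxygenated cells, prolyl hydroxylases mark it for recognition by VHL and degradation, and when oxygen is low it accumulates, joins ARNT and binds DNA that carries the letters ACGTG or GCGTG, called the HIF core here. Its known targets include glycolytic enzymes, glucose transporters and signals for blood vessel growth. The embryonic heart grows in low oxygen and relies on HIF1α for its development.

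The sequences under 6 member peaks that hold the HIF core are shown because they let its place be seen relative to the gene start, which lies near the middle of each. They are the 6 closest to an annotated start among the named genes whose peak lay whole inside a promoter window of the RefSeq promoter table (GRCm38.p6, the build also called mm10), each printed on the strand of its gene. Tubgcp6, a subunit of the γ-tubulin ring that seeds microtubules, had its peak at chr15:89123102-89123202 on the minus strand. Bag2, a regulator of the HSP70 chaperone, had it at chr1:33757705-33757805 (minus). Vamp1, a membrane-fusion protein of vesicles, had it at chr6:125215525-125215625 (plus). Usp40, a ubiquitin-specific protease, had it at chr1:88008514-88008614 (minus). Eif3b, a scaffold subunit of translation initiation factor eIF3, had it at chr5:140419235-140419335 (plus). Nagpa, which uncovers the mannose 6-phosphate tag of lysosomal enzymes, had it at chr16:5203984-5204084 (minus). Capitals mark the HIF core on either strand, so CACGC in Eif3b is GCGTG on the other strand, and in Nagpa they mark the E-box CACGTG, which holds ACGTG on both strands.
Tubgcp6: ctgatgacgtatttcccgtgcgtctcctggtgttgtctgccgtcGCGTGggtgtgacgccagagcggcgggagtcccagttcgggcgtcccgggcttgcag
Bag2: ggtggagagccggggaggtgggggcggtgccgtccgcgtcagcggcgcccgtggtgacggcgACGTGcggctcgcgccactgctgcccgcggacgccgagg
Vamp1: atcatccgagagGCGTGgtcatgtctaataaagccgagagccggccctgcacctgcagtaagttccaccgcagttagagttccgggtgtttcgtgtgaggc
Usp40: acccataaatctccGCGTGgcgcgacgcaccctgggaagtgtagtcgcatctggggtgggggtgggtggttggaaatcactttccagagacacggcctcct
Eif3b: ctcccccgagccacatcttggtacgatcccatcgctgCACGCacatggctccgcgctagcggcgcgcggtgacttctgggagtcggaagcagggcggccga
Nagpa: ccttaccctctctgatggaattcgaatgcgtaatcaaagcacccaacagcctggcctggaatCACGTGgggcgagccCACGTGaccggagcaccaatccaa

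Of the named genes whose peak lay whole inside a promoter window and had no HIF core, the 3 with a peak closest to the start of that window's transcript are shown to set beside the others. They lay at AI837181 (chr19:5425092-5425192, plus strand), at Cox6b1, a subunit of cytochrome c oxidase (chr7:30626066-30626166, minus), and at Cops6, a subunit of the COP9 signalosome that acts on ubiquitin ligases (chr5:138161045-138161145, plus). Capitals mark a GC box (CCGCCC, which is GGGCGG on the other strand) and the YY1 letters AAGATGGC in AI837181, an ETS site (TTCCGG, which is CCGGAA on the other strand) in Cox6b1 and a GC box in Cops6. The letters TATAAA in AI837181 and CCAAT (as attgg) in Cox6b1 are also there but not in capitals. Over all named genes, 51 peaks lay whole inside a promoter window, and 23 of them held the HIF core.
AI837181: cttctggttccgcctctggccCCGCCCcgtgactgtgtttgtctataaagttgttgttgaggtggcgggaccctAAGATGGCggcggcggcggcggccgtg
Cox6b1: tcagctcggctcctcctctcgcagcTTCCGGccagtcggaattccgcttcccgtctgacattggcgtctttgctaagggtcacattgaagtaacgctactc
Cops6: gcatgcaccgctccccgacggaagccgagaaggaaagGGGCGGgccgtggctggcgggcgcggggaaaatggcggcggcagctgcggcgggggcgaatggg

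The HIF core lay under 133 of the 331 member peaks that fell whole inside a promoter window, a share of 40.2% (34.9 to 45.7). In 1 fixed stretch of all protein-coding promoters, the 101 bases centred 78 bp before the start, the share was 24.6% (4295 of 17492). This stretch lies at the median position of the member promoter peaks. Their own centres varied, so position was matched only at the median. By peak class, the share was 28.2% (18.1 to 40.1, 20 of 71) in 1-call promoter peaks scoring 2, 40.2% in the members, 47.9% (41.6 to 54.2, 123 of 257) in 1-call peaks scoring 4 or more and 60.7% (55.9 to 65.4, 260 of 428) in peaks of 2 calls. Members thus stood above all promoters and below the peaks of 2 calls, with intervals that do not overlap either. Of the 2 forms, ACGTG was under 16.6% (12.8 to 21.1) of member promoter peaks and 8.0% of all promoters. GCGTG was under 28.1% (23.3 to 33.3) of them and 18.7% of all promoters. A match is a description of the letters and not a shown binding site.

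Member promoters were rich in CG pairs, and the HIF core itself contains one. The median member stretch had 9 CG pairs and 65.3% G or C, against 4 CG pairs and 57.4% over all promoters. Among stretches with 10 or more CG pairs, the core was in 47.1% of members (39.0 to 55.3, 73 of 155) and in 45.3% of all promoters. With 5 to 9 CG pairs the shares were 39.1% (30.8 to 47.9, 52 of 133) in members and 34.3% in all promoters, and with under 5 they were 18.6% (8.39 to 33.4, 8 of 43) in members and 10.5% in all promoters. In each of these 3 classes, members lay above all promoters by less than over all stretches together, and their interval held the value of all promoters. The peaks of 2 calls had 33.3%, 53.5% and 70.2% from the lowest class to the highest. ACGTG alone stood at 19.5% (13.2 to 27.3) in members with 5 to 9 CG pairs, against 10.9% of all promoters in that class, and at 16.1% (10.7 to 22.9) in members with 10 or more, against 12.7% of all promoters. With under 5, ACGTG was in 9.3% (2.59 to 22.1) of members and 4.43% of all promoters. GCGTG was in 11.6%, 23.3% and 36.8% of members from the lowest class to the highest, and in 6.5%, 26.3% and 37.6% of all promoters, so in the upper classes members were not above the promoters of the same class.

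**Figure D1:**
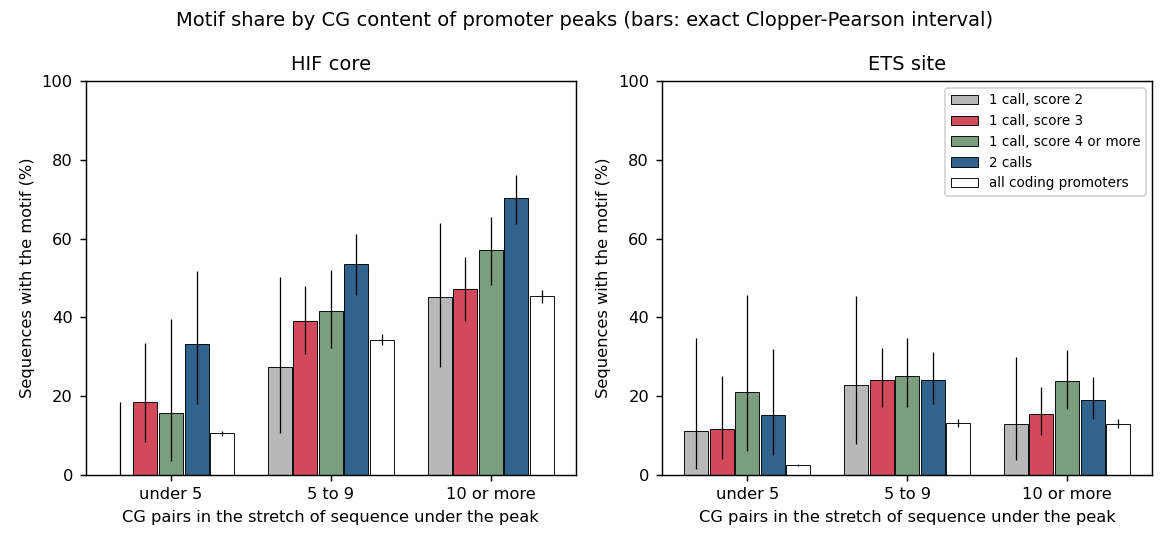
Share of sequences (%, vertical axis) that hold the HIF core (left) or an ETS site (right), by the number of CG pairs in the 101 bases, for 1-call promoter peaks scoring 2, 3, and 4 or more, peaks of 2 calls and all coding promoters. Bars on the columns are exact 95% intervals, and with 10 or more CG pairs the members (47.1%) stand close to all promoters (45.3%) for the HIF core, while peaks of 2 calls stand at 70.2%.

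Several other motifs were also counted, beside the same fixed stretch of all promoters. Motifs that keep a set distance from the start are therefore not compared at like positions, and the effect of position on these shares was not tested. Members here are the 331 that fell whole inside a promoter window. ETS sites (CCGGAA on either strand) were under 18.4% of member promoter peaks (14.4 to 23.0), against 7.67% of all promoters, and in the class of 5 to 9 CG pairs they were under 24.1% (17.1 to 32.2) of members and in 13.1% of all promoters. With under 5 CG pairs the ETS shares were 11.6% (3.89 to 25.1) in members and 2.49% in all promoters, and with 10 or more they were 15.5% (10.2 to 22.2) in members, against 502 of 3853 in all promoters (interval 12.0% to 14.1%). ETS factors are a family that includes GABPA, a regulator of many mitochondrial and housekeeping promoters. The YY1 letters AAGATGGC were under 2.42% (1.05 to 4.71) of members and 0.623% of all promoters, and under 7.71% of peaks of 2 calls. By CG class they were in 2.33%, 2.26% and 2.58% of members and in 0.358%, 0.958% and 0.831% of all promoters, from the lowest class to the highest. GC boxes (GGGCGG, the letters of SP1 sites) were under 39.3% (34.0 to 44.8) of members and 30.1% of all promoters, but with 5 to 9 CG pairs they were under 29.3% (21.8 to 37.8) of members and in 44.2% of all promoters. With 10 or more CG pairs the shares were 55.5% (47.3 to 63.5) in members and 62.2% in all promoters. In the lowest class they were 11.6% (3.89 to 25.1) in members and 8.92% in all promoters, and both intervals hold the value of all promoters. Going the other way, CCAAT was under 10.6% of members (7.48 to 14.4) and 22.0% of all promoters, and TATAAA was under 1 of 331 members (0.302%) and 4.06% of all promoters. The E-box CACGTG was under 5.74% (3.49 to 8.82) of members and 3.06% of all promoters. The letters GCATGCGC of NRF1 (3.02%, 1.46 to 5.49, of members and 1.6% of all promoters) and TGACGTCA of CREB factors (2.11%, 0.854 to 4.31, of members and 1.12% of all promoters) had intervals that hold the value of all promoters. The E-box contains the HIF core. The letters of the CCAAT box, TATA box, NRF1, CREB factors and E-box were not set against CG content.

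HIF cores were a little denser near the centre of the 331 member promoter peaks than at their edges, though the intervals of the bands overlap. There were 6.87 cores per kb within 16 bp of the centre, 6.66 per kb from 17 to 33 bp and 5.34 per kb from 34 to 48 bp. In these densities an E-box counts as 2 cores. E-boxes were in 5.74% of member promoter peaks, 3.06% of all promoters and 9.11% of promoter peaks of 2 calls, so the densities are raised unequally. Counted by peak, 17.2% of these 331 (13.3 to 21.7) had a core in the inner band and 13.3% (9.83 to 17.4) in the outer one. Over all promoters the same bands had 3.61, 3.73 and 3.6 cores per kb. In promoter peaks of 2 calls they had 14.4, 12.0 and 8.72 per kb, with a core in the inner band of 32.7% of peaks (28.3 to 37.4) and in the outer band of 20.3% (16.6 to 24.5).

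Member peaks sat mostly at gene starts. Where the strand of the nearest gene was known, 840 of 907 (92.6%, 90.7 to 94.2) were nearest to its 5' end and 67 to its 3' end. For 203 peaks the strand of the nearest gene was not known. The rule used both ends alike, so this side was not part of the choice. For the other peaks at coding gene ends, the start took 73.1% (68.3 to 77.6, 269 of 368) at a score of 2, 96.8% (570 of 589) at a score of 4 or more and 97.2% (95.9 to 98.2) in peaks of 2 calls. The median distance to the gene end was 162 bp in members (quartiles 65.5 and 370 bp), against 287 bp at a score of 2, 134.5 bp at 4 or more and 100.5 bp with 2 calls. Member peaks at starts had a median distance of 145.5 bp and those at 3' ends one of 525 bp.

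Of the members, 916 lay at a gene of known strand, some of them farther than 1.0 kb from any annotated start. The 100 bp just before the start held 198 of the 916 (21.6%), more than any other bin of that width. The next bins were the 100 bp after the start with 148 (16.2%) and the 100 bp farther upstream with 117 (12.8%). By position, 315 of the 916 lay within 200 bp before the start and 242 within 200 bp after it. Of all 1110 members, 549 had their centre inside the gene. The genes themselves had a median length of 18.7 kb, against 17.2 kb over all protein-coding genes.

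**Figure D2:**
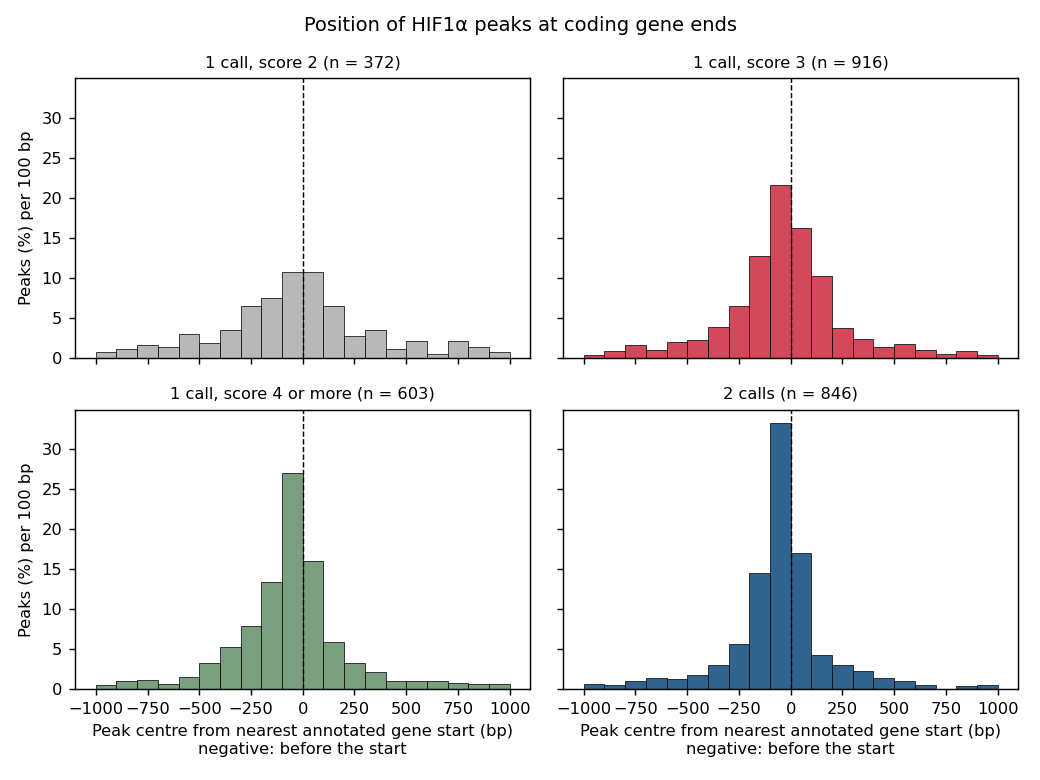
Distance from the nearest annotated gene start to the peak centre (bp, horizontal axis, negative before the start) as a share of peaks per 100 bp (%, vertical axis) for 4 classes of peaks at coding gene ends. Members (1 call, score 3, n = 916) peak at 21.6% in the 100 bp before the start, and the distribution is flatter at a score of 2 and sharper with 2 calls.

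Some members lay at the ends of neighbouring genes. Of the 1110 peaks, 164 (14.8%, 12.7 to 17.0) were within 1.0 kb of more than 1 coding gene, against 9.28% at a score of 2, 16.8% at 4 or more and 17.1% with 2 calls. Among 130 such peaks with the strand known for both genes, 82 were nearest to the 5' ends of 2 genes on opposite strands, such as Mrps27 and Ptcd2. Some of the 82 lay inside 1 or both of the genes. Fancd2 and Emc3, and the histidyl-tRNA synthetase genes Hars and Hars2, shared a peak as well, and a shared peak cannot be given to either gene. Among the genes described below, the peaks of Mad1l1, Sugp1, Nop14, Nop9, Kars, Slc25a44, Xpc, Sf3b2, Mtor and P4htm lay closer to an end of another coding gene. Most genes had 1 member peak (1165 genes), and 53 had 2. Over the 54 genes with 2 or more, the median gap from first to last peak was 286 bp and the range 116 to 46290 bp, and the longest gaps, at Asb15 (46290 bp), Proser2 (30887 bp), Scamp2 (28963 bp), Copg1 (26165 bp) and Neurl4 (13191 bp), joined peaks at opposite ends of the gene.

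Member peaks lay at a hydroxylase, a ubiquitin ligase part and a sister subunit of HIF1α. Of 10 genes of the HIF machinery, 3 had a member peak (30.0%, 6.67 to 65.2). Hif1an, which encodes the asparaginyl hydroxylase FIH that blocks HIF from its coactivators, had one 89 bp before its start (chr19:44562715-44562815), with no HIF core under it. Vhl, the part of the ubiquitin ligase that recognises hydroxylated HIF1α, had one 139 bp into the gene (chr6:113624083-113624183). Epas1, the gene of the related subunit HIF2α, had one 445 bp outside an end of the gene (chr17:86753369-86753469). At 2 of the same 10 genes lay a peak of 2 calls. With 10 genes the interval is wide, and it begins just above the background of 5.6%.

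Hypoxia response genes and glycolytic genes had 1 member each, while peaks of 2 calls lay at many of them. A member lay at 1 of 30 genes of the hypoxia response (3.33%, 0.0844 to 17.2) and at 1 of 33 glycolytic genes (3.03%, 0.0767 to 15.8). Peaks of 2 calls, which lay at 5.54% of all protein-coding genes, lay at 18 of the same 30 (60.0%, 40.6 to 77.3) and at 13 of the same 33 (39.4%, 22.9 to 57.9). The 1 hypoxia gene was Ndrg1, a stress-induced gene known as a HIF target, with its peak 759 bp inside an end of the gene (chr15:66968832-66968932). The 1 glycolytic gene was Pgam2, the muscle form of phosphoglycerate mutase, with its peak 11 bp before the start (chr11:5803757-5803857) and no HIF core under it. A member is by its rule a peak that was not merged with a further call.

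Genes of the respiratory chain and ATP synthase had members in 10 of 89 cases (11.2%, 5.52 to 19.7), an interval that just holds the background of 5.6%. Cox6b1 of cytochrome c oxidase had its peak centre 2 bp before the start, Ndufa10 of NADH dehydrogenase 8 bp inside its 5' end and Atp5o of ATP synthase 14 bp inside the gene. The others were Ndufa5, Ndufa9, Ndufa12 and Ndufb2 of NADH dehydrogenase, Cox7a1 and Cox8a of cytochrome c oxidase, and Atp5e of ATP synthase. Cox7a1, the heart and muscle form of its subunit, had its peak at 58 bp. Around the tricarboxylic acid cycle, 3 of 26 genes were at members (11.5%, 2.45 to 30.2), and 0 of the 26 were at a peak of 2 calls. They were Dld (188 bp), the dehydrogenase subunit shared by the pyruvate and oxoglutarate complexes, Pcx (343 bp), which makes oxaloacetate from pyruvate, and Pdhb (383 bp), a subunit of pyruvate dehydrogenase.

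For the machinery that makes mitochondria, members lay at 8 of 78 mitochondrial ribosomal protein genes (10.3%, 4.53 to 19.2), and peaks of 2 calls at 20 of them (25.6%, 16.4 to 36.8). Mrps27 had its peak 27 bp outside its 5' end, over a HIF core, and Mrpl19 and Mrps16 had theirs at 39 and 60 bp. Of 32 genes for protein import, 4 had members (interval 3.51% to 29.0%), namely the inner-membrane translocase pathway genes Timm13 (44 bp), Timm17a (247 bp) and Timm10b (248 bp) and the outer-membrane receptor Tomm70a (72 bp). Of 47 solute carriers of the SLC25 family, 2 had members (4.26%), Slc25a30 at 34 bp over a HIF core and Slc25a44 at 194 bp. Of 28 genes of fatty acid oxidation and mitochondrial biogenesis, 2 had members (7.14%), Acads (354 bp), a short-chain acyl-CoA dehydrogenase, and Pprc1 (597 bp), a coactivator of the PGC1 family. Each of these 4 intervals holds the background of 5.6%.

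Genes of aminoacyl-tRNA synthetases, which load tRNAs with amino acids, were at members in 10 of 37 cases (27.0%, 13.8 to 44.1), above the background of 5.6%. They included Farsb, Hars, Hars2, Kars, Mars1, Nars, Sars, Sars2 and Yars2, for the cytosol and for mitochondria, and the 10 genes lay at 9 peaks because Hars and Hars2 shared 1. Mars1 for methionine had its peak 20 bp inside the gene, and Farsb for phenylalanine had its peak at 25 bp. At 7 of the 37 lay a peak of 2 calls (18.9%, 7.96 to 35.2), and at 0 of them a 1-call peak scoring 4 or more. Where each peak was given to its nearest gene only, the share was 18.9% beside a background of 4.91%.

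Other genes of protein synthesis were at members about as often as one another. The counts were 9 of 76 translation factors (11.8%, 5.56 to 21.3), 9 of 84 cytosolic ribosomal protein genes (10.7%, 5.02 to 19.4) and 7 of 61 genes of ribosome biogenesis and the RNA exosome (11.5%, 4.74 to 22.2). Each of these intervals holds the background of 5.6%, that of the translation factors only just. Of the translation factors, 4 were subunits of eIF3, which brings initiator tRNA and mRNA to the small ribosomal subunit. Their distances were 20 bp for Eif3b, 61 bp for Eif3e, 72 bp for Eif3g and 83 bp for Eif3h, and those 4 symbols were picked out after their values were seen. Eif2b3, of the exchange factor that recharges eIF2, lay at 61 bp, and Eif4g1, the scaffold of the cap-binding complex, at 83 bp. Ribosomal protein genes had peaks farther out, the closest being Rpl37 (140 bp), Rpl21 (155 bp) and Rpl32 (170 bp). Ribosomal protein genes have many near-identical copies in the genome, and how the authors treated reads with several matches is not given in the sources used here. Nop9 (65 bp, over a HIF core), Utp20 (126 bp) and Nop14 (132 bp) act in processing ribosomal RNA.

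Among genes of mRNA synthesis and processing, the splicing list had 17 of 96 genes at members (17.7%, 10.7 to 26.8), above the background of 5.6%. It held 5 subunits of the SF3A and SF3B complexes of the branch site (Sf3a3 at 90 bp, Sf3b4, Sf3b5 and Sf3b6, and Sf3b2 on its 3' side) and 5 Lsm genes (Lsm2, Lsm3, Lsm5, Lsm6 and Lsm14b), of which Lsm14b, with its peak on the 3' side, is known from mRNA storage in the cytoplasm. Prpf8, the core protein at the heart of the spliceosome, had its peak at 286 bp, and Snrnp70 of the U1 particle had its peak at 90 bp. The closest were Sugp1 at 48 bp and Lsm3 at 58 bp, the peak of Lsm3 lying over a HIF core and shared with the DNA repair gene Xpc. At 12 of the 96 lay a peak of 2 calls (interval 6.63% to 20.8%).

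RNA polymerases and general transcription factors were at members in 12 of 76 cases (15.8%, 8.43 to 26.0), also above the background. Polr2e, a subunit shared by the 3 nuclear RNA polymerases, had its peak 25 bp before the start over a HIF core. Taf3 at 44 bp, of the TFIID complex that recognises promoters, and Gtf2h2 at 48 bp, of the TFIIH complex that opens them, followed. Of 33 Mediator genes, 4 had members (12.1%, 3.4 to 28.2), with Med28 at 2 bp, Med26 at 11 bp, Ccnc at 48 bp and Med17 at 99 bp. Helicases of the DEAD and DEAH box families were at members in 7 of 53 cases (13.2%, 5.48 to 25.3), with Dhx35 closest at 15 bp, then Dhx8 at 88 bp and Dhx29 at 93 bp. The intervals of the Mediator and helicase lists both hold the background of 5.6%.

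Chromatin modifiers lay at members in 19 of 152 cases (interval 7.7% to 18.8%, above 5.6%), and at peaks of 2 calls in 31 (20.4%, 14.3 to 27.7). The NAD-dependent deacetylases Sirt2 and Sirt1 had peaks at 27 and 33 bp, and Sirt6 had one at 548 bp. Sirt1 had a HIF core under its peak and Sirt2 had none. Crebbp, the coactivator CBP that HIF recruits, had its peak at 89 bp, and 4 genes of the SWI/SNF remodelling complexes had theirs at 111 bp (Smarca4), 190 bp (Smarcd2), 193 bp (Smarcd1) and 311 bp (Smarcb1). Kdm4a, a histone lysine demethylase that needs oxygen, had one at 185 bp. No member lay at any of the 13 genes of the histone list (0 of 13, which allows a share of up to 23.1%). The list did not hold every histone gene, and H3c15, which was not on it, had a member 199 bp beyond its 3' end.

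DNA repair genes were at members in 13 of 71 cases (18.3%, 10.1 to 29.3), above the background of 5.6%, while peaks of 2 calls lay at 9 of them (12.7%, 5.96 to 22.7). Rad50, which holds broken DNA ends together, had its peak at 23 bp. The Fanconi anaemia genes Fancd2 (52 bp, shared with Emc3), Fance (86 bp) and Fancg (116 bp), which act on cross-linked strands, and Brca2 (195 bp), which acts in homologous recombination, were on the list as well. Excision repair was represented by Xpc (89 bp) and Ercc2 (114 bp), and the sensing of damage by Rad9a (53 bp) and Parp1 (85 bp). With each peak given to its nearest gene only, the share was 12.7% beside a background of 4.91%.

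Lists of DNA replication, mitosis, cyclins and apoptosis had intervals that hold the background of 5.6%. DNA replication had 5 of 52 (9.62%, 3.2 to 21.0), led by Orc5 of the origin recognition complex at 20 bp, Gins3 of the replicative helicase at 153 bp and Prim1 of primase at 164 bp. Mitosis had 6 of 85 (7.06%, 2.63 to 14.7), led by the spindle checkpoint gene Mad1l1 at 8 bp, the centromere gene Cenpl at 10 bp and Anapc2 of the anaphase-promoting complex at 26 bp. Cyclins and CDK inhibitors had 1 of 30 (3.33%), Cdk2, the kinase of entry into DNA synthesis, at 99 bp, and p53 and apoptosis genes 1 of 34 (2.94%), the pro-apoptotic Bid at 309 bp. The centrosome and cilia list was above it, with 15 of 131 (11.5%, 6.55 to 18.2), against 7 (5.34%, 2.18 to 10.7) for peaks of 2 calls. The 15 include Ttc33 and Ttc38, whose role in centrosomes or cilia was not checked. The peak of Ttc38 (710 bp) lay closer to Gtse1 (159 bp). Within 500 bp the share of this list was 7.63% (3.72 to 13.6), which holds the background of 4.56% in that window. Bbs1, of the complex that carries cargo into cilia, had its peak at 35 bp, Tubgcp6 at 56 bp and Ift74, of the transport particle inside cilia, at 68 bp.

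Vesicle traffic genes were at members in 29 of 252 cases (11.5%, 7.84 to 16.1), above the background, and at peaks of 2 calls in 35 (13.9%, 9.87 to 18.8). Vps4b, an ATPase of the ESCRT machinery that pinches off membranes, had its peak 2 bp inside the gene, and Vamp1 and the small GTPase gene Rab29 had theirs at 6 and 9 bp. Of the nuclear pore and transport list, 4 of 54 were at members (7.41%, 2.06 to 17.9), among them the import receptor genes Kpna3 (13 bp) and Kpna2 (124 bp) and the export receptor Xpo5 (67 bp).

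For protein breakdown, folding, stress signalling and autophagy, the intervals hold the background of 5.6%. The ubiquitin system had 25 of 350 genes at members (7.14%, 4.68 to 10.4), led by Cops6 at 7 bp, Usp40 at 18 bp and the RING finger gene Rnf187 at 37 bp. The proteasome had 2 of 52 (3.85%, 0.469 to 13.2), Psmc1, an ATPase of its cap, at 147 bp and Pomp, its assembly factor, at 181 bp over a HIF core. Chaperones had 7 of 93 (7.53%, 3.08 to 14.9), led by Bag2 at 5 bp. Stress signalling had 2 of 36 (5.56%), the kinase gene Eif2ak1 at 345 bp and Sdf2l1, a component of a chaperone complex in the endoplasmic reticulum, at 586 bp. Autophagy and mitophagy had 2 of 43 (4.65%, 0.568 to 15.8), Pink1, the kinase that marks damaged mitochondria, at 39 bp over a HIF core, and Atg14, of the complex that starts the autophagosome, at 51 bp. At 8 of those 43 lay a peak of 2 calls (18.6%, 8.39 to 33.4).

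**Figure D3:**
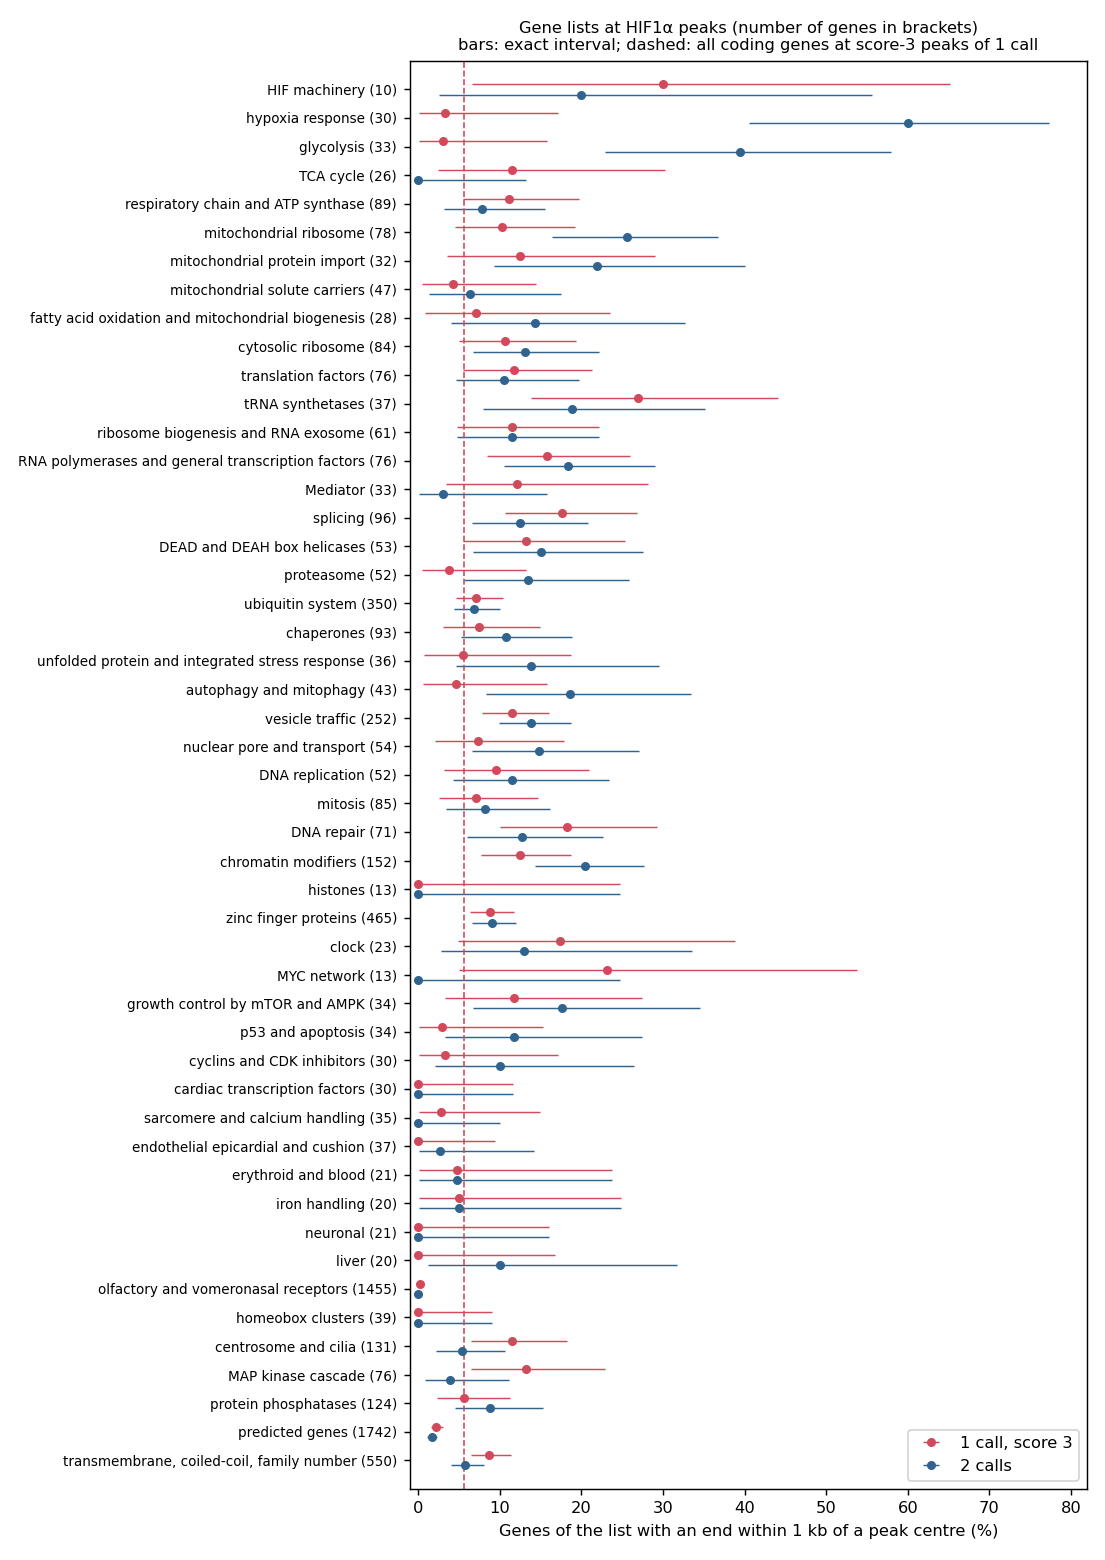
Share of the genes of each list shown (%, horizontal axis, number of genes in brackets) that had an end within 1.0 kb of a member peak (red) or of a peak of 2 calls (blue), with exact 95% intervals. The dashed line is the 5.6% of all coding genes at members, and the hypoxia response (3.33% at members, 60.0% at peaks of 2 calls) and glycolysis (3.03% at members, 39.4% at peaks of 2 calls) show the widest gaps between the colours.

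The list of the MAP kinase cascade, which carries growth factor and stress signals, had 10 of 76 genes at members (13.2%, 6.49 to 22.9). That is above the background of 5.6%, and 3 of the 76 were at peaks of 2 calls (3.95%, 0.822 to 11.1). The 10 also hold Dusp18 and Mapk1ip1, and the peak of Mapk1ip1 (53 bp) lay closer to Ppp2r2d (30 bp). Among the 10 were the MAP kinase kinase genes Map2k7 (15 bp), Map2k4 (33 bp) and Map2k2 (109 bp), the JNK scaffold Mapk8ip3 (25 bp), Mapk9, which encodes the kinase JNK2 (144 bp), and Braf (313 bp). Map2k7, Map2k4, Mapk8ip3 and Mapk9 act in the JNK branch, a grouping made after their values were seen. Map2k7 also had a peak of 2 calls within 1.0 kb. Protein phosphatases (7 of 124, 5.65%) were at the background, led by Ppp2r2d, a regulatory subunit of phosphatase PP2A, at 30 bp.

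The clock and MYC networks and growth control by mTOR and AMPK each had a few genes at members, on short lists. Clock genes had 4 of 23 (17.4%, 4.95 to 38.8), namely the repressor Per2 at 83 bp, the output factors Hlf at 97 bp and Tef at 278 bp, and the activator Npas2 at 858 bp. Hlf had a HIF core under its peak. The MYC network had 3 of 13 (23.1%, 5.04 to 53.8), namely Max, the partner that MYC needs to bind DNA, at 87 bp, and the MAX-binding repressors Mxd3 at 225 bp and Mga at 884 bp. Genes of growth control by mTOR and AMPK had 4 of 34 (11.8%, 3.3 to 27.5). There, Rragc, a GTPase that reports amino acids to mTOR, lay at 122 bp over a HIF core, Lamtor5 and Lamtor2 of its lysosomal anchor at 153 and 355 bp, while the peak nearest to Mtor lay 930 bp beyond its 3' end and 196 bp from Exosc10, on the 5' side of that gene. All 3 intervals are wide, and those of the clock, mTOR and MYC lists each hold 5.6%.

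Genes that define heart cells had 1 member over 3 lists. Of 30 cardiac transcription factor genes, 0 had one, which allows a share of up to 10.0%. Of 35 sarcomere and calcium handling genes, 1 had one (2.86%, 0.0723 to 14.9), Actc1, the cardiac α-actin gene, with the peak 896 bp beyond its 3' end (chr2:114046336-114046436). Endothelial, epicardial and cushion genes had 0 of 37, which allows up to 8.11%. Each of these upper limits lies above 5.6%, so a lack relative to the background was not detectable with lists of this length. At 0 of the 30, 0 of the 35 and 1 of the 37 genes lay a peak of 2 calls.

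Neuronal, liver and homeobox lists were short, and the share that a count of 0 allows there reaches past the background of 5.6%. Neuronal genes had 0 of 21 (up to 14.3%), liver genes 0 of 20 (up to 15.0%) and homeobox clusters 0 of 39 (up to 7.69%). Epor, the erythropoietin receptor gene, was the 1 gene on both the erythroid list (1 of 21, 4.76%) and the iron list (1 of 20, 5.0%), with its peak 62 bp before the start and no HIF core under it, and both intervals hold 5.6%. Olfactory and vomeronasal receptor genes were at members in 4 of 1455 cases (0.275%, 0.075 to 0.702), below the background. Olfr1151 (82 bp) and Olfr1220 (398 bp) had theirs on the 3' side and Olfr44 (646 bp) on the 5' side. Predicted genes, named Gm with a number or ending in Rik, were below it as well, with 39 of 1742 (2.24%, 1.6 to 3.05).

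Large families of less studied genes made up a good part of the rest. Zinc finger genes were at members in 41 of 465 cases (8.82%, 6.4 to 11.8), led by Zfp114 at 6 bp, Zscan26 at 9 bp and Zfp704 at 11 bp. Genes named only for a transmembrane segment, a coiled coil or a family number were at members in 48 of 550 cases (8.73%, 6.5 to 11.4), led by Fam118a at 3 bp, Fam168b at 5 bp and Fam43a at 9 bp. Both intervals lie above 5.6%. Over the 50 lists, 30 had a share above the background, 11 had their whole interval above it, 2 had it below, and 6 had no member. The background includes the olfactory and predicted genes, which were at members less often, and it was not recomputed without them. Several of the 11 lower limits lay close to it, the lowest being the 6.4% of the zinc finger genes. The lists took in 408 of the 1219 genes at members, and 811 were on none. The 10 peaks closest to a gene end were at Mtx1 (0 bp), AI837181, Abhd16a, C1qbp, Cox6b1, Med28, Nagpa, Scrib and Vps4b (2 bp each), and Brsk1 (3 bp). Mtx1 acts in import at the outer mitochondrial membrane, C1qbp is a protein of the mitochondrial matrix, and Scrib sets cell polarity.

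How often a member gene also had a peak of 2 calls nearby depended on the window. Within 5 kb, 80 of the 1219 had one (6.56%, 5.24 to 8.1), against 7.79% of the other protein-coding genes and 7.72% of all of them. Within 1.0 kb, 49 member genes had one (4.02%, 2.99 to 5.28), against 5.63% of the other genes and 5.54% of all. Within 50 kb, 319 member genes had one (26.2%, 23.7 to 28.7), against 20.7% of the other genes and 21.0% of all. A call merged with a further one is not a member, so the share within 1.0 kb is partly set by the rule and is a description only. Within 5 kb the interval of the member genes held the value of the other genes, and within 50 kb it lay above it. Of the remaining 1-call peaks, those scoring 2 lay within 1.0 kb of 3.28% of member genes (2.35 to 4.44) and of 2.12% of the other genes. Those scoring 4 or more lay within 1.0 kb of 2.71% of member genes (1.87 to 3.78) and of 3.77% of the other genes.

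The members were spread over the autosomes and sparse on the X chromosome. On the 19 autosomes, 1203 of 20560 protein-coding genes were at members (5.85%, 5.53 to 6.18), with shares per chromosome between 4.35% on chromosome 14 and 7.23% on chromosome 5. On the X chromosome 16 of 963 were (1.66%, 0.953 to 2.68). On the Y chromosome 0 of 256 were, which allows a share of up to 1.17%.

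**Figure D4:**
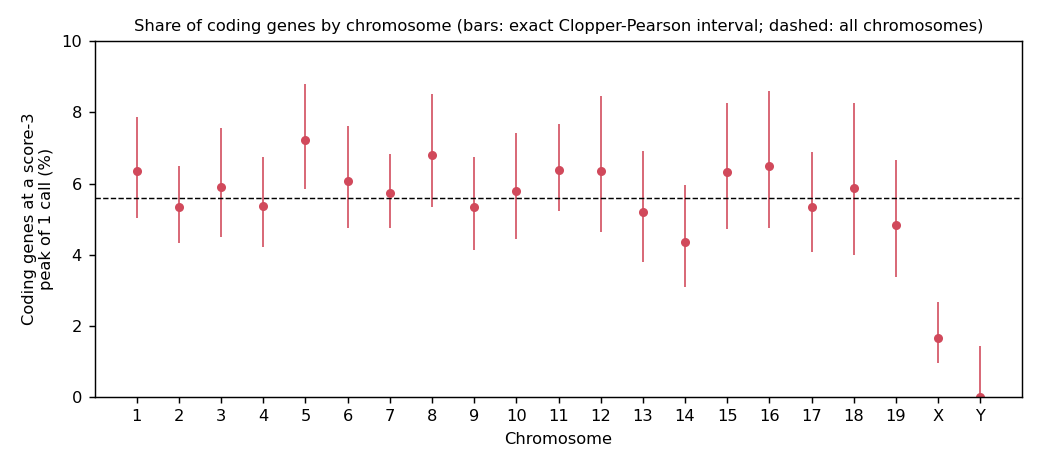
Share of protein-coding genes at a member peak (%, vertical axis) on each chromosome (horizontal axis), with exact 95% intervals, and the 5.6% over all chromosomes as a dashed line. The 19 autosomes lie between 4.35% and 7.23%, and the X chromosome at 1.66%.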

How the data were processed

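Hearts of wild-type Black-Swiss embryos gave 2 HIF1α pulldowns and 1 input. Bowtie2, HOMER and the mm10 build are named, without versions, in the submitters' processing notes. The data used are the authors' merged list of 17289 peaks, of which 17288 are nuclear. Its whole-number score, at least 2, was deposited by the authors, and what it is relative to is not given, so it only described and chose peaks. No source used here gives the thresholds for calling and merging. The end of a peak name was read as its number of merged calls.

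Genes came from a RefSeq table (GRCm38.p6), without those starting below 3 Mb, except on Y. Strand, starts and sequence came from the RefSeq promoter table, windows from 250 bases before to 50 after a start, which covered 17492 of the 21779 protein-coding genes. Peak positions are given from 1. Motifs were searched on both strands in the central 101 bases of peaks that lay whole in a window of a gene at the peak. Of all promoters, 1 per gene was used. CG classes were split at 5 and 10 pairs. Positions were not resolved into exon, intron or UTR. Some genes and 1 list are not reported here.

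Members and lists were chosen with earlier results of these data known. Of 519 listed symbols, 1 matched no gene, and 31 of the 50 lists were made from symbol patterns. Named genes were up to 3 per list with the smallest distance, all those of the HIF machinery, hypoxia response, glycolysis and cardiac transcription factor lists, and the 10 closest peaks. Other genes named with a value were chosen after their values were seen, as were the CG classes and bands around the centre. Scripts ran in Python 3.11.15 with pandas 2.3.3, SciPy 1.17.1 and matplotlib 3.10.9, and the peak-to-gene step was checked on simulated peaks. Alternatives covered windows of 500 bp and 2 kb, any overlapping base, scores of 3 or more, nearest genes, predicted genes left out, and other motif settings.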

Additional observations from a re-analysis of the deposited data

How the results depend on the processing

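With scores of 3 or more in place of exactly 3, the member peaks came to 1836 and their genes to 1995. The other settings gave 925 to 1253 peaks and 993 to 1426 genes. The share of score-3 peaks of 1 call at coding gene ends, 24.8% within 1 kb, was 20.7% within 500 bp and 28.0% within 2 kb, which follows from the width of the window. The share of member peaks at the gene start, 92.6%, was 96.0% within 500 bp and 93.0% with any start within 1 kb. The share of member promoter peaks with the HIF core, 40.2%, was 16.6% for ACGTG alone. A larger set, the 438 members with their centre in a promoter window, had the core somewhere in the whole window in 75.3% of cases. In the whole window all promoters had 49.2%. The share of member genes near a peak of 2 calls, 6.56% within 5 kb, was 4.02% within 1 kb and 26.2% within 50 kb. Lists above the background numbered 30, and 32, 33 and 33 with windows of 500 bp, 2 kb and nearest genes only. For the 11 lists with their interval above the background, each share under those 3 settings lay within that interval. Beside the background of each setting, all 11 kept their interval above it within 2 kb and with nearest genes only, and 10 within 500 bp, where centrosome and cilia genes had 7.63% (3.72 to 13.6) beside 4.56%.

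No paired analysis was possible because the authors merged both pulldowns into 1 list. Leaving out each pulldown in turn was not run, since a call is not marked with its pulldown. The read depth is unknown. Both pulldowns are set against 1 input, which they share. A member has no merged further call, and its score of 3 is 1 above the lowest score of 2. Sequence was at hand for 331 of the 1110 members. Strand and starts were known for 17492 of 21779 genes.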

Other observations

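Many of the 811 member genes on no list belonged to groups that a reader may recognise. The groups and genes below were picked out after their values were seen, so their counts are descriptions with no denominator. Assembly factors of the respiratory chain accounted for 10 genes, with peak centres at 9 bp for Coa5, 12 bp for Coa7, 14 bp for Cox19 and 31 bp for Cox10, all of which serve cytochrome c oxidase. Genes that express the mitochondrial genome accounted for 12, among them C1qbp (2 bp), the transcription termination factor family gene Mterf4 (50 bp), Fastkd2 (55 bp) and Trmt10c (92 bp), a part of mitochondrial RNase P. A further 12 act in mitochondrial proteolysis, import and dynamics, such as Mtx1 (0 bp), the rhomboid protease Parl (21 bp), Clpx of the matrix protease (51 bp) and Mfn1 of mitochondrial fusion (161 bp). Cholesterol synthesis was represented by genes such as Cyp51 (19 bp), Sqle (241 bp), Hsd17b7 (297 bp) and Hmgcs1 (579 bp). Entry into the secretory pathway and glycosylation had 12, among them Srp72 of the signal recognition particle (4 bp) and the oligosaccharyltransferase subunits Ddost (32 bp) and Ost4 (49 bp).

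Some genes known for hypoxia or for the heart were outside the lists. Stc1, the stanniocalcin gene (81 bp), Csf1, a macrophage growth factor (122 bp), Mif (241 bp, on the 3' side) and Gdf15 (525 bp, on the 3' side) encode secreted factors. Lox, which cross-links collagen (160 bp), P4htm, a transmembrane prolyl hydroxylase (339 bp, on the 3' side), and P3h4, which acts with a collagen hydroxylase (98 bp, at a peak shared with Fkbp10), lay at members as well. Of muscle and heart genes, Casz1, a zinc finger factor (29 bp), Jph1, which ties the surface membrane to the calcium store (30 bp), Cavin4 (125 bp) and the potassium channel gene Kcnh2 (854 bp) had members. Of developmental signalling, Heg1 (34 bp), the growth factor inhibitor Spry1 (47 bp), Ryk, a Wnt receptor (90 bp), Fzd7 (478 bp), Gli1 (563 bp), Gli2 (681 bp) and Notch3 (776 bp) had them.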
